A study of Homo sapiens with 24 samples.

Results

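The genes described here are antisense lncRNAs that carry the name of a neighbouring gene. They were chosen from the deposited table by 2 rules: a gene name ending in -AS and digits, and a TPM of 0.5 or more in 2 or more of the 6 libraries of the second table. Of 58884 genes listed, 1248 had such a name, and 402 of these passed the threshold. Of the 1248, 420 were at 0 in all 6 libraries. The TPM threshold used the same libraries that are compared below, so a gene could pass through a single group in which it was high. At 0.5 or more in all 6 libraries were 295 of the 402 genes, 21 reached 0.5 only with SETD2 C, and 10 were below 0.5 in both SETD2 C libraries. Just outside the threshold lay MED4-AS1, FSIP2-AS1 and TRG-AS1, with a second-highest TPM of 0.49, and just inside it ROR1-AS1, STK24-AS1 and EMC1-AS1, with a second-highest TPM of 0.5. The partner of each was the gene whose symbol stands before -AS, and 389 partner genes were listed. A single partner gene was lacking for 9 of the antisense genes, namely RPARP-AS1 and 8 genes of the HOX clusters (HOXA-AS2, HOXA-AS3, HOXB-AS1, HOXB-AS3, HOXC-AS1, HOXC-AS2, HOXC-AS3 and HOXD-AS2).

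The cells were HEK293T, a human embryonic kidney line. In the KO cells both endogenous alleles of SETD2, the enzyme that trimethylates H3K36, were disrupted. The second table held 2 libraries of KO cells, labelled as untreated, 2 of KO cells transfected with full-length SETD2 (SETD2 FL) and 2 of KO cells transfected with a C-terminal fragment of residues 1404 to 2564 (SETD2 C), both driven by a CMV promoter in transient transfection. Libraries of the second table are named by the number in their label: 2 and 4 for KO, 3 and 4 for SETD2 FL, 1 and 2 for SETD2 C. Values are given in that order, so the second KO library is the first one printed. The first table held 2 WT and 2 KO libraries and was made separately, and groups were compared only within a table. Since the KO libraries were untreated, transfection and construct cannot be told apart in comparisons with KO, whereas SETD2 C and SETD2 FL were both transfected. Nothing in the labels says that the 2 libraries of a group came from separate cultures, so p-values measure only the spread between these samples. In bulk RNA, fewer cells of a type and less RNA per cell cannot be told apart.

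An antisense lncRNA is transcribed from the strand opposite to its partner. Many start at the partner's own promoter and run away from it, and the annotation now names a number of these divergent transcripts (DT). Others start within the partner or beyond its end and run through it. Such RNAs are usually low, often stay in the nucleus, and many are degraded there by the RNA exosome. SETD2 acts on transcribed gene bodies, where H3K36me3 is known to restrain initiation inside genes. TPM counts transcripts per length relative to the whole library. The kit's strandedness was not given in the sources used here, so where exons of an antisense gene and its partner share bases, their reads cannot be told apart.

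In GENCODE 44, 142 of the 402 antisense genes lay head to head with the partner (opposite strands, starts within 1000 bases), whether or not the genes overlapped. Of the rest, 242 overlapped the partner on the opposite strand and 6 lay apart on the opposite strand. A further 9 had no partner position and 3 were not in the annotation. The mean level over the 6 libraries, in TPM scaled by each library's median ratio, ran from 0.199 to 118 with a median of 2.02. Of the 402, 393 were tested, since 9 were neither protein-coding nor lncRNA in the annotation (EMC3-AS1, SLC44A3-AS1, SVIL-AS1, RAB6C-AS1, TP73-AS1 and SRP54-AS1) or could not be matched to it (TNRC6C-AS1, DDIT4-AS1 and FRMD6-AS1). In a fit of all gene types only DDIT4-AS1 of these 9 was called (below).

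The starts of 3 antisense genes with different neighbourhoods show how they lie to their partners. The sequences are from RefSeq on GRCh38.p14, 5′ to 3′ on the strand of the antisense gene, from 250 bases before to 50 bases after the start that RefSeq gives, which can lie away from the GENCODE start, and without bases that are exons of another gene. Capitals mark ACGTG on either strand, a form of the core of the element that hypoxia-inducible factors bind. Other forms of that core, such as GCGTG, were not marked or counted. A palindromic E-box, CACGTG, holds ACGTG on both strands. HIF1A-AS2 (ENSG00000258667, which GENCODE 44 names HIF1A-AS3) had the largest difference and is shown from chr14:61751048-61751347, minus strand. SLC2A1-AS1 (ENSG00000227533, now SLC2A1-DT) rose with its partner, and the 171 bases from chr1:42958894-42959064, plus strand, begin right beside the SLC2A1 start. GATA6-AS1 (ENSG00000266010) rose beside a partner that was not called and is shown from chr18:22168919-22169218, minus strand.
HIF1A-AS2: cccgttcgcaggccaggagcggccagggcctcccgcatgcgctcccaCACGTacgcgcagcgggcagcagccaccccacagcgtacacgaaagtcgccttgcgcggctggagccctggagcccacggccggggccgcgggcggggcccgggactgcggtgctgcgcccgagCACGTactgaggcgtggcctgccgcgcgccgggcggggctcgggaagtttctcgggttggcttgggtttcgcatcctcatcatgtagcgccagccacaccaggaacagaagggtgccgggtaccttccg
SLC2A1-AS1: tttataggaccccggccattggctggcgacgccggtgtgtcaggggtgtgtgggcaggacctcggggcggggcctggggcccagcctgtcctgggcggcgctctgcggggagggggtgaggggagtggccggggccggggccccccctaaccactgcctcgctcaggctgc
GATA6-AS1: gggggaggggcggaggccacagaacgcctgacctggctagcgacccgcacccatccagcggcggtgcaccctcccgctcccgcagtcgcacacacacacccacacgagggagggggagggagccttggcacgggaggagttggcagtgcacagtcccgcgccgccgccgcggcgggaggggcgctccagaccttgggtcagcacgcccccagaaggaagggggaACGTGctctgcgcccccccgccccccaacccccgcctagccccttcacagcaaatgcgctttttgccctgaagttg
The HIF1A-AS2 window held ACGTG at 2 places, the GATA6-AS1 window at 1 and the SLC2A1-AS1 stretch at 0. A RefSeq window was matched for 303 of the 402 antisense genes. ACGTG was in 13 of the 25 matched windows of genes called higher with SETD2 C than in KO (52.0%), in 66 of 273 windows of genes tested and not called (24.2%), and in 7518 of all 35116 windows (21.4%). CCAAT, a common promoter element searched in the same way on both strands, was in 9 of the 25, 89 of the 273 and 12155 of the 35116. TATAAA, the TATA box, was in 4 of the 25, 13 of the 273 and 4049 of the 35116, so ACGTG was not the only motif with a larger share among called genes. These shares were not tested, and head-to-head genes share part of their window with the partner's promoter. The 25 include HIF1A-AS2, which passed the TPM threshold through the SETD2 C libraries alone.

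SETD2 itself checks the labels. Among the libraries of the second table, its TPM was 11.99 and 12.15 in KO, stood at 439 and 422 with SETD2 FL and was 1329 and 1264 with SETD2 C. The first table gave 12.6 and 14.8 for WT and 16.2 and 16.3 for the libraries labelled KO, so its mRNA level did not separate KO from WT. The nuclear lncRNA NEAT1 had a TPM of 110 and 112 in KO, 121 and 117 under SETD2 FL and 578 and 758 under SETD2 C, and MALAT1 38.0 and 29.5, 28.4 and 27.8, and 68.3 and 103. Mitochondrially encoded genes held 7.04% and 6.23% of the TPM in KO, 11.0% and 7.79% in the SETD2 FL libraries and 2.93% and 3.37% in those of SETD2 C. The part of these differences in the results below was not tested. All 11 markers of HEK293T cells were expressed, and all 11 were higher in both SETD2 C libraries than in the KO and the SETD2 FL libraries. Of these, 4 were called higher than in KO (KRT8, TUBB3, NEFL and NEFM) by limma, with a median log2 difference of 0.54 over the 11, and their part in the results was not tested. PTPRC and PECAM1, markers of blood and endothelial cells, had at most 0.02 and 0.17 TPM in the second table.

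Which antisense lncRNAs changed upon expression of SETD2 C was asked first against KO. Of the 393 tested, 29 were called higher and 0 lower by limma, where a call needed a change of 2-fold or more and an adjusted p (Benjamini-Hochberg) not above 0.05 (7.38% higher). Of all 15929 genes tested, 3.75% were called higher and 0.314% lower. Other lncRNAs were called higher in 7.88% of 2118 and protein-coding genes in 2.99% of 13419, so the share of antisense genes lay near that of other lncRNAs. The median difference on the log2(scaled TPM + 0.5) scale was 0.29 for antisense genes, 0.33 for other lncRNAs and 0.05 for all genes tested. At an unadjusted p under 0.05, 22 antisense genes were lower and 166 higher. Among the 287 tested genes at 0.5 or more in all 6 libraries, 18 were called higher. Of the 20 tested genes that reached 0.5 only with SETD2 C, 1 was called, HIF1A-AS2, and such genes had to be higher there. The summed deposited TPM of the 402 genes, not scaled, was 2067 and 2090 in the KO libraries, 1965 and 1987 in SETD2 FL and 2878 and 2906 in SETD2 C. The scaling factors of these libraries were 0.966 and 0.957, 0.956 and 0.995, and 1.06 and 1.07. The sum includes the genes that reached 0.5 only with SETD2 C, and sums of other gene sets were not computed. The counts moved with the scale: 48 were called higher and 3 lower with a pseudocount of 0.1, 11 and 0 with a pseudocount of 1, and 13 and 6 after quantile normalization, where the median was 0.07. Counts over all 15929 genes moved as well, from 597 higher and 50 lower. They were 987 and 93, 335 and 38, and 342 and 130 in these 3 settings. Of the 29 genes, 22 to 24 were still called when a KO or a SETD2 C library was left out.

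Against SETD2 FL, which was transfected in the same way, 25 antisense genes were called higher with SETD2 C and 0 lower (limma, 6.36% of 393). Of all genes tested, 3.36% were called higher and 0.421% lower, and of other lncRNAs 10% higher. The median difference was 0.32 for antisense genes, 0.37 for other lncRNAs and 0.04 for all genes. At an unadjusted p under 0.05, 13 were lower and 176 higher. Both comparisons use the same SETD2 C libraries. Of the 20 tested genes that reached 0.5 only with SETD2 C, and so had to be higher there, 2 were called. Called in both were 14 genes (HIF1A-AS2 among them), in the comparison with KO alone 15 and in that with SETD2 FL alone 11, together 40. In all 40 the mean of the SETD2 C libraries was above both other means, and in 23 the mean of SETD2 FL was below that of KO. Without the third SETD2 FL library the count against SETD2 FL was 38 in place of 25.

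**Figure D1:**
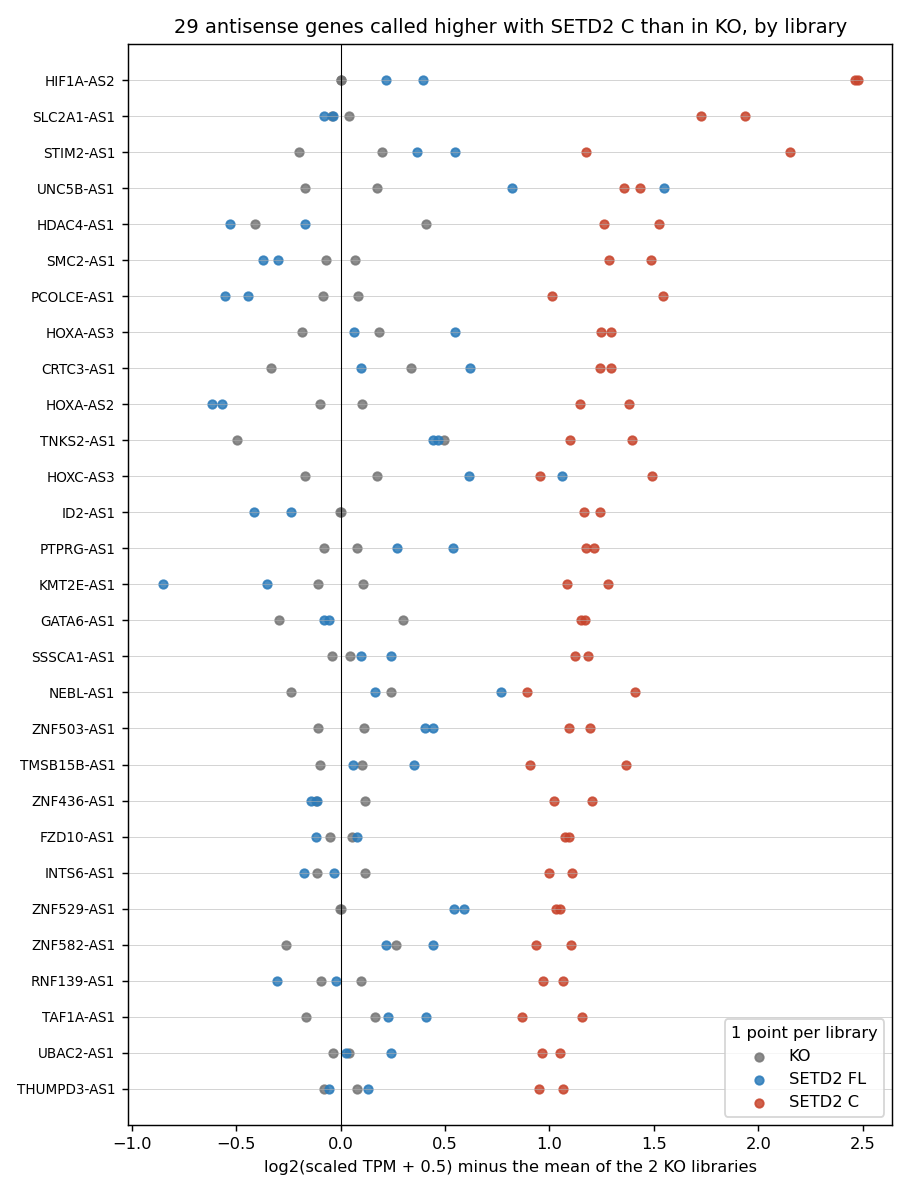
Levels of the 29 antisense genes called higher with SETD2 C than in KO, as log2(scaled TPM + 0.5) minus the mean of the 2 KO libraries, with 1 point per library (KO gray, SETD2 FL blue, SETD2 C red) and genes ordered by their difference from KO. In all 29 the mean of the SETD2 C libraries lies to the right of both other means, with differences of 1.01 at the bottom. HIF1A-AS2, at the top, reached the TPM threshold only with SETD2 C and so had to lie to the right.

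**Figure D2:**
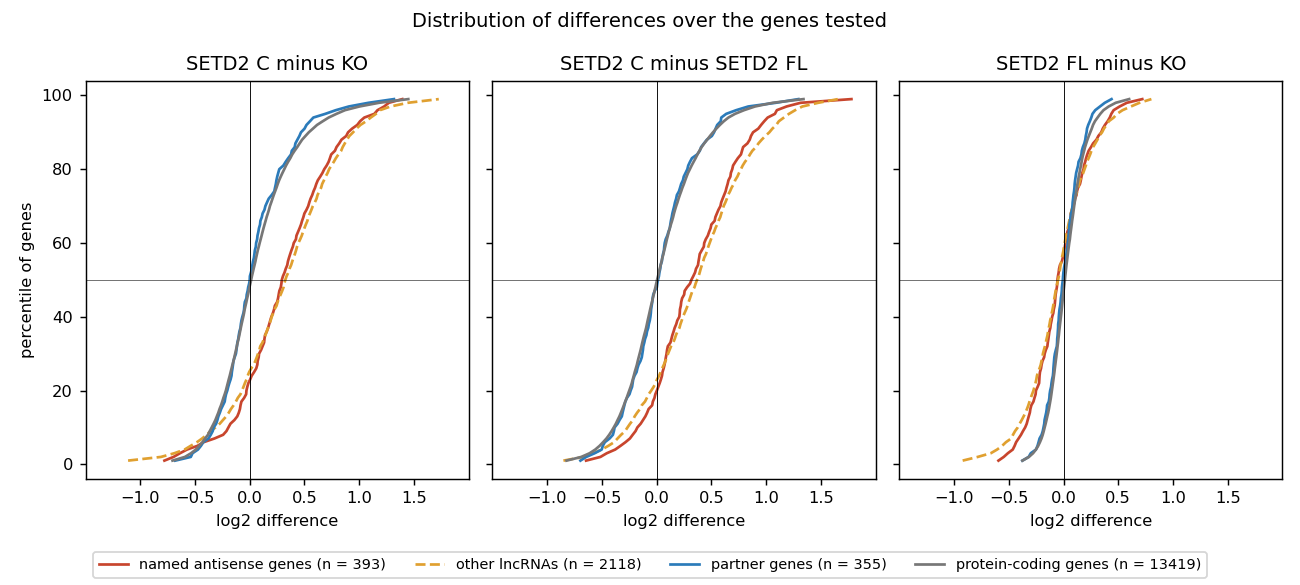
Percentiles of the log2 difference over 393 antisense genes (red), 2118 other lncRNAs (dashed orange), 355 partner genes (blue) and 13419 protein-coding genes (gray) in the 3 comparisons of the second table. In both comparisons with SETD2 C, the antisense genes follow the other lncRNAs, with medians of 0.29 and 0.32, and the partners follow the protein-coding genes.

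The largest difference was that of HIF1A-AS2, which passed the TPM threshold through the SETD2 C libraries alone, so that it had to differ and its values are given without a test. It overlaps HIF1A, the oxygen-regulated subunit of the hypoxia-inducible factor, from chr14:61707298-61751163 on the minus strand, and 88.5% of its exonic bases lie in HIF1A introns. It was listed at a TPM of 0 in each of the KO libraries, and had 0.15 and 0.08 TPM under SETD2 FL and 2.4 and 2.44 TPM under SETD2 C. The SETD2 C libraries thus stood apart from the other 4. With both KO libraries at 0, its fitted difference depends on the pseudocount, and no fold is given. HIF1A had 22.2 and 22.2 TPM in KO, 22.7 and 24.6 in the SETD2 FL libraries and 24.97 and 27.92 in those of SETD2 C, a log2 difference of 0.10 ± 0.07 (SE) from KO (limma adjusted p = 0.309).

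SLC2A1-AS1 starts 156 bases from SLC2A1, the glucose transporter GLUT1 and a classical target of hypoxia-inducible factors, and shares no exonic base with it. Its TPM was 1.96 and 2.08 in KO, 1.87 and 2.02 in SETD2 FL and 8.62 and 10.1 in SETD2 C. KO and SETD2 FL overlapped and SETD2 C lay far above both, 3.56-fold above KO on the pseudocount scale (log2 difference 1.83 ± 0.12, limma adjusted p = 6.09e-05). SLC2A1 rose as well, from 32.8 and 37.7 TPM in KO to 95.1 and 93.7, a log2 difference of 1.27 ± 0.09 (adjusted p = 8.92e-05). With SETD2 FL it had 39.7 and 36.2 TPM, which overlapped KO.

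Antisense genes of developmental regulators were among those called. Of 31 with a HOX, GATA or related partner, 4 were called higher with SETD2 C than in KO (HOXA-AS2, HOXA-AS3, HOXC-AS3 and GATA6-AS1). Against SETD2 FL 4 were called higher (among them HOXA-AS2, HOXC-AS1 and GATA6-AS1), and 0 were lower in both, with medians of 0.42 and 0.38. Both shares were 12.9%, beside 7.38% and 6.36% of all antisense genes tested. Other lncRNAs had 7.88% and 10%, and all genes tested 3.75% and 3.36%. The calls are few, and the difference between these shares was not tested. Of their 23 partners, 0 were called in either direction, with 6 higher and 4 lower against KO at the adjusted p alone (limma, 13 at an unadjusted p under 0.05). HOXA-AS2, a transcript of the HOXA cluster, had 9.98 and 11.4 TPM in KO, 7 and 7.02 under SETD2 FL and 26.8 and 31.8 under SETD2 C. The order was SETD2 FL, KO, SETD2 C with no overlap, and its log2 difference was 1.26 ± 0.10 against KO (limma adjusted p = 0.000206) and 1.86 ± 0.10 against SETD2 FL (adjusted p = 2.97e-05). HOXA-AS3 rose from 0.44 and 0.7 TPM in KO to 2.2 and 2.31, and stood at 1.04 and 0.63 with SETD2 FL. HOXC-AS3 rose from 0.58 and 0.35 in KO to 2.38 and 1.49, but SETD2 FL, at 1.47 and 0.99, lay nearly as high and overlapped SETD2 C after scaling, and without the first SETD2 C library its difference of 0.95 missed the fold threshold.

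GATA6-AS1 lies head to head with GATA6, an endoderm transcription factor, and starts 289 bases from it. Its TPM was 2.19 and 3.52 in KO, 2.6 and 2.76 in the SETD2 FL libraries and 7.5 and 7.64 in those of SETD2 C. It rose by a log2 difference of 1.16 ± 0.18 from KO (limma adjusted p = 0.00252) and 1.23 ± 0.18 from SETD2 FL. Without the KO library numbered 2, at 2.19 TPM, the former was 0.86 and missed the fold threshold. GATA6 had 8.05 and 8.53 TPM in KO and 9.22 and 9.17 with SETD2 C, a log2 difference of 0.00 ± 0.10 after scaling (adjusted p = 0.991). ID2-AS1 overlaps ID2, an inhibitor of basic helix-loop-helix factors, which is outside the group above. It had 0.65 and 0.64 TPM in KO, 0.36 and 0.49 in SETD2 FL and 2.41 and 2.27 in SETD2 C (log2 difference 1.20 ± 0.16 from KO, adjusted p = 0.00138). ID2 rose as well, from 193 and 202 TPM in KO to 506 and 532 (log2 difference 1.25 ± 0.05, adjusted p = 8.41e-06). Among 349 pairs with both genes tested, those of SLC2A1 and ID2 were the only ones in which both were called, against KO and against SETD2 FL.

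**Figure D3:**
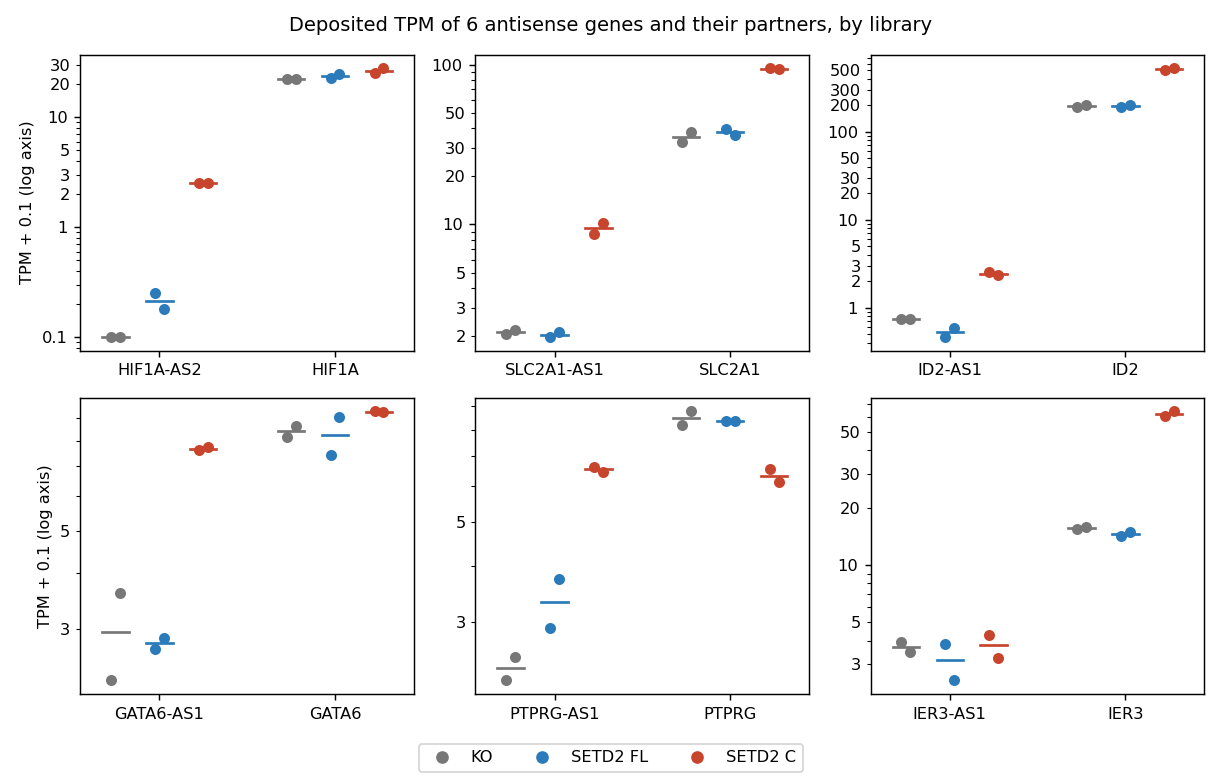
Deposited TPM plus 0.1 on a log axis for 6 antisense genes (left of each panel) and their partners (right), with 1 point per library and a bar at the mean of the 2 libraries of KO (gray), SETD2 FL (blue) and SETD2 C (red). HIF1A-AS2 and GATA6-AS1 are highest with SETD2 C beside partners that were not called, SLC2A1 and ID2 are high together with their antisense genes, PTPRG is lower with SETD2 C, and IER3 is high while IER3-AS1 overlaps between groups.

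Antisense genes of chromatin and transcription factors were called in 2 of 14 cases against KO (HDAC4-AS1 and TAF1A-AS1) and 1 of 14 against SETD2 FL (HDAC4-AS1), and 0 of their 14 partners were called (limma, 6 at an unadjusted p under 0.05 against KO). The antisense shares were 14.3% and 7.14%, beside 7.88% and 10% of other lncRNAs and 3.75% and 3.36% of all genes tested. The difference between these shares was not tested. HDAC4-AS1, head to head with the class II deacetylase HDAC4, had 1.59 and 3.15 TPM in KO, 1.41 and 2.02 under SETD2 FL and 6.74 and 8.25 under SETD2 C. The log2 difference was 1.39 ± 0.26 from KO (limma adjusted p = 0.00527) and 1.75 ± 0.26 from SETD2 FL. Without the KO library numbered 2, at 1.59 TPM, the former was 0.98, just under the fold threshold. HDAC4 had 2.5 and 3.19 TPM in KO and 2.91 and 3.37 with SETD2 C. KMT2E-AS1, within the span of KMT2E of the trithorax family, had 3.45 and 4.05 TPM in KO, 2.81 and 1.92 in the SETD2 FL libraries and 9.37 and 10.9 in those of SETD2 C, with SETD2 FL the lowest group. KMT2E had 11.98 and 11.87 TPM in KO and 17.9 and 20.2 with SETD2 C, a log2 difference of 0.51 (adjusted p = 0.00265) that missed the fold threshold. KMT2E and SMC2, a condensin subunit, were not on that list. SMC2-AS1 had 2.37 and 2.63 TPM in KO, 1.81 and 2 in SETD2 FL and 7.5 and 8.74 in SETD2 C. SMC2 itself had between 23.5 and 26.2 TPM in all 6 libraries.

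Antisense genes of zinc finger and THAP proteins were called in 4 of 26 cases against KO (those of ZNF436, ZNF503, ZNF529 and ZNF582) and 2 of 26 against SETD2 FL (those of ZNF436 and THAP9), with medians of 0.41 and 0.36, beside 0 of 25 partners (limma, 8 at an unadjusted p under 0.05 against KO). The antisense shares were 15.4% and 7.69%, beside 7.88% and 10% of other lncRNAs and 3.75% and 3.36% of all genes tested. The difference between these shares was not tested. ZNF436-AS1 had 11.2 and 9.38 TPM in KO, 9.22 and 9.78 under SETD2 FL and 23.6 and 27.0 under SETD2 C (log2 difference 1.11 ± 0.10 from KO, limma adjusted p = 0.000323; 0.99 without the fourth KO library). THAP9-AS1, head to head with the transposase-derived gene THAP9, was among the most abundant of all the antisense genes. Its TPM was 80.3 and 84.1 in KO, 66.9 and 65.2 in the SETD2 FL libraries and 146 and 168 in those of SETD2 C, so that it rose from SETD2 FL (log2 difference 1.11 ± 0.07, adjusted p = 6.74e-05), while its difference from KO was 0.78. THAP9 had 3.63 to 6.01 TPM over all 6 libraries.

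STIM2-AS1, UNC5B-AS1 and PTPRG-AS1 belonged to none of the lists. STIM2-AS1, whose partner encodes a calcium sensor, had 0.58 and 0.91 TPM in KO, 1.08 and 1.34 in SETD2 FL and 2.5 and 5.46 in SETD2 C. Its SETD2 C libraries differed from each other by more than the other groups did, and its difference from SETD2 FL of 1.20 was no longer called without the second of them (0.71) or without the third SETD2 FL library (adjusted p = 0.0755, limma). UNC5B-AS1, beside a netrin receptor, had 0.31 and 0.14 TPM in KO, 0.75 and 1.62 under SETD2 FL and 1.56 and 1.46 under SETD2 C. Among the 12 genes called with the largest differences from KO, SETD2 FL overlapped SETD2 C on the scaled values for UNC5B-AS1 and HOXC-AS3 only. Its difference of SETD2 FL from KO was 1.18 ± 0.26 (limma adjusted p = 0.129). PTPRG-AS1 had 2.13 and 2.41 TPM in KO, 2.81 and 3.63 in the SETD2 FL libraries and 6.5 and 6.36 in those of SETD2 C. It rose by a log2 difference of 1.19 ± 0.13 from KO, while PTPRG, a receptor tyrosine phosphatase, was lower, with 8.08 and 8.68 TPM in KO and 6.45 and 6.01 with SETD2 C (log2 difference of -0.54, adjusted p = 0.00339, under the fold threshold).

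The remaining genes named by the rule for the largest differences were PCOLCE-AS1, CRTC3-AS1, TNKS2-AS1 and PARD3-AS1. PCOLCE-AS1, antisense to a procollagen processing enhancer, had 2.72 and 2.35 TPM in KO, 1.72 and 1.62 in SETD2 FL and 9.17 and 6.22 in SETD2 C. CRTC3-AS1 had 0.51 and 0.14 TPM in KO and 1.52 and 1.6 with SETD2 C, and its difference of 1.27 was 0.94 without the fourth KO library and missed the adjusted p without the second SETD2 C library (0.0547, limma). TNKS2-AS1, head to head with the tankyrase gene TNKS2, had 1.4 and 0.46 TPM in KO and 3.33 and 2.63 with SETD2 C, and its difference of 1.25 was 0.75 without the fourth KO library and missed the adjusted p without the first SETD2 C library (0.0771, limma). PARD3-AS1 had 1.03 and 0.67 TPM under SETD2 FL and 2.09 and 4.16 under SETD2 C, and its difference of 1.27 was 0.85 without the second SETD2 C library. The calls of these last 3 thus did not hold without each library. SSSCA1-AS1, whose start lies 2 bases from that of SSSCA1, rose from 0.96 and 1.04 TPM in KO to 3.03 and 3.2, whereas SSSCA1 had 66.2 and 66.4 TPM in KO and 54.0 and 50.5 with SETD2 C (log2 difference of -0.49, limma adjusted p = 0.000879, under the fold threshold).

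Among 26 antisense lncRNAs that the literature names often, 4 were called higher against KO (HIF1A-AS2, HOXA-AS2, GATA6-AS1 and THUMPD3-AS1), 3 against SETD2 FL (the same without THUMPD3-AS1), and 0 lower, with medians of 0.29 and 0.43. HIF1A-AS2 is in both counts although it passed the TPM threshold only through SETD2 C. The shares were 15.4% and 11.5%, beside 7.88% and 10% of other lncRNAs and 3.75% and 3.36% of all genes tested. The difference between these shares was not tested. THUMPD3-AS1 had 45.4 and 40.2 TPM in KO, 46.6 and 42.5 under SETD2 FL and 91.6 and 99.9 under SETD2 C. Its log2 difference of 1.01 ± 0.09 from KO (limma adjusted p = 0.000242) lay at the fold threshold and was 0.925 without the fourth KO library and 0.95 without the second SETD2 C library. HOXB-AS3 had 20.5 and 21.9 TPM in KO and 42.0 and 42.3 with SETD2 C, a difference of 0.83 under the threshold. Other widely studied genes on the list were not called: FGD5-AS1 had a difference of 0.07, NNT-AS1 of 0.16, TPT1-AS1 of 0.10 and MCM3AP-AS1 of -0.03 (adjusted p from 0.253 to 0.867). The other genes of highest level were not called. EPB41L4A-AS1, the most abundant, had 112 and 117 TPM in KO, 96.8 and 105 in the SETD2 FL libraries and 135 and 144 in those of SETD2 C, a scaled difference of 0.14 (adjusted p = 0.101). MAPKAPK5-AS1 had a difference of 0.08 (adjusted p = 0.273) and PHEX-AS1 of 0.32 (adjusted p = 0.0129).

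No antisense gene passed both thresholds in the lower direction, but 17 were lower with SETD2 C than in KO at the adjusted p alone, beside 126 higher. Of all genes tested, 15.1% were lower and 21.1% higher in this way, and of other lncRNAs 4.2% and 30.7%. VPS9D1-AS1 and A1BG-AS1, chosen after their values were seen, were lower against both groups. VPS9D1-AS1 had 33.5 and 29.4 TPM in KO, 31.9 and 34.7 in SETD2 FL and 22.02 and 19.83 in SETD2 C (log2 difference of -0.72, limma adjusted p = 0.000831). A1BG-AS1 had 6 and 6.68 TPM in KO, 6.33 and 6.13 under SETD2 FL and 4.01 and 3.85 under SETD2 C (log2 difference of -0.76, adjusted p = 0.00141). The most negative value, -0.99 for DNAJC9-AS1 (adjusted p = 0.0213), lay among low levels of 2.11 and 1.5 TPM in KO, 1.07 and 0.52 in the SETD2 FL libraries and 0.91 and 0.58 in those of SETD2 C.

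Partner genes were compared beside their antisense genes in 349 pairs with both tested. Of 355 partners tested, 8 were called higher with SETD2 C than in KO (2.25%) and 0 lower by limma, with a median difference of 0.00 (86 higher and 67 lower at an unadjusted p under 0.05). The counts against SETD2 FL were 8 and 0, with a median of 0.01 (85 and 72). Of 26 pairs whose antisense gene was called higher than in KO, the partner was called in 2, and its difference was positive in 17, with a median of 0.12. In 173 of the 349 pairs both differences had the same sign. Across pairs the 2 differences had a Pearson correlation of 0.15 (Spearman 0.15), which describes these genes only, since neighbouring genes in the same libraries are not independent replicates. The ratio of antisense gene to partner was higher in both SETD2 C libraries than in both KO libraries in 190 pairs, lower in 55, and overlapped in 104. Single levels of all genes tested were higher without overlap in 40.5% and lower in 30.8%, and those of antisense genes higher in 58.8%. Against SETD2 FL the pairs were 194, 45 and 110, where single levels of all genes were higher in 40.3% and lower in 32%. A ratio of 2 genes is another measure than a single level, and ratios of other gene pairs were not computed.

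The reverse case, a partner called beside an antisense gene that was not, occurred in 5 pairs against KO. BHLHE40, a hypoxia-responsive repressor of the circadian clock, had 35.2 and 36.2 TPM in KO, 30.1 and 35.3 in SETD2 FL and 160 and 177 in SETD2 C (log2 difference 2.07 ± 0.08, limma adjusted p = 6.81e-06). BHLHE40-AS1, head to head with it, had 0.67 and 0.68 TPM in KO, 0.42 and 0.51 under SETD2 FL and 1.57 and 1.1 under SETD2 C, a difference of 0.53 (adjusted p = 0.0565). IER3, an immediate early gene, rose from 15.4 and 15.7 TPM in KO to 60.3 and 64.0 (log2 difference 1.82 ± 0.06), whereas IER3-AS1 had 3.82 and 3.39 TPM in KO and 4.18 and 3.16 with SETD2 C. TIPARP, a poly(ADP-ribose) polymerase family member, rose by 1.38, while TIPARP-AS1 had 1.89 and 3.12 TPM in KO and 3.87 and 2.27 with SETD2 C, which overlapped. PCF11, a factor of cleavage and transcription termination, rose by 1.10 from 22.03 and 22.35 TPM to 50.5 and 56.1, with PCF11-AS1 between 0.8 and 1.34 TPM in all 6 libraries. LMCD1 rose by 1.14, beside LMCD1-AS1 with a difference of 0.33 (adjusted p = 0.375). A gap of this sign without a call in either gene was found for AGAP2 with AGAP2-AS1 (0.82 and -0.32) and for DNAJC9 with DNAJC9-AS1 (0.27 and -0.99).

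DDIT4, a stress-induced inhibitor of mTOR signalling, was the remaining partner called against KO, and its antisense gene was not among those tested. DDIT4 had 113 and 123 TPM in KO, 105 and 114 in the SETD2 FL libraries and 378 and 398 in those of SETD2 C (log2 difference 1.57 ± 0.06, limma adjusted p = 6.92e-06). DDIT4-AS1 had 2.2 and 2.94 TPM in KO, 2.14 and 1.56 in SETD2 FL and 5.86 and 4.42 in SETD2 C. In the fit of all gene types its difference was 0.75 from KO (adjusted p = 0.0398) and 1.15 from SETD2 FL (adjusted p = 0.00907).

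**Figure D4:**
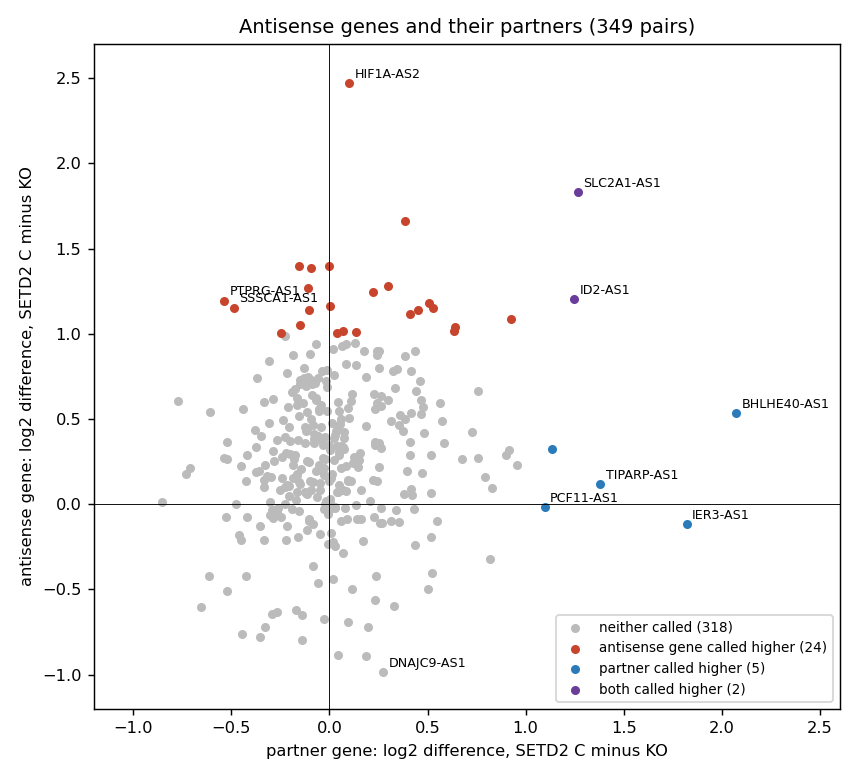
Log2 difference of SETD2 C minus KO for 349 antisense genes (vertical axis) against that of their partners (horizontal axis), with 1 point per pair, colored by which of the pair was called higher. The 24 pairs with the antisense gene alone called (red) lie between -0.54 and 0.92 on the partner axis, the 5 with the partner alone called (blue) lie near or below 0.53 on the antisense axis, and SLC2A1 and ID2 (purple) are called on both.

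The called genes were spread over the arrangements with the partner. Of head-to-head antisense genes 12 of 141 were called higher than in KO (8.51%) and 11 against SETD2 FL. Of those outside that group that overlapped on the opposite strand, 12 of 239 (5.02%) and 11 were called. The other 5 called against KO were SMC2-AS1 and ZNF503-AS1, which lie apart from their partners, and 3 genes of HOX clusters. The median difference from KO was 0.36 head to head and 0.27 for the overlapping genes outside that group. Of 80 antisense genes that shared no exonic base with any other annotated gene, 7 were called higher than in KO and 8 against SETD2 FL, with medians of 0.42 and 0.44. Of 37 that shared most of their exonic bases, 1 and 2 were called, with medians of 0.11 and 0.08. By mean level, 7 of 131 were called against KO in the lowest, 13 of 131 in the middle and 9 of 131 in the highest group of equal size. Differences between these groups were not tested.

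The remaining partner groups were counted in the same way, and differences between groups were not tested. Over all genes tested, 3.75% were called higher against KO and 3.36% against SETD2 FL, and of other lncRNAs 7.88% and 10%. Antisense genes of RNA and translation factors were called higher in 2 of 14 cases against KO (INTS6-AS1 and THUMPD3-AS1) and 1 against SETD2 FL (INTS6-AS1), of ubiquitin and proteasome genes in 1 of 11 in both (RNF139-AS1), of transporters and channels in 1 of 23 in both, and of mitochondrial proteins (11) and of cytoskeletal or GTPase genes (15) in 0 (limma, 4 and 6 at an unadjusted p under 0.05 against KO). The transporter called was SLC2A1-AS1. Of 23 genes of the nuclear exosome and its adaptors, which degrade antisense RNA, 0 were called (limma, 10 at an unadjusted p under 0.05 against KO), with a median of -0.13 against KO and -0.14 against SETD2 FL. EXOSC4, an exosome core subunit, had the largest difference among them, with 42.4 and 39.1 TPM in KO, 42.8 and 44.8 under SETD2 FL and 31.9 and 26.5 under SETD2 C (log2 difference of -0.63, limma adjusted p = 0.00201, under the fold threshold).

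The same question was asked of SETD2 FL against KO, and no antisense gene was called. Of the 393 tested, 0 were called against KO in either direction by limma, with a median of -0.06, and 22 were higher and 35 lower at an unadjusted p under 0.05. Of all genes tested, 0.0753% were called higher and 0.00628% lower. Of partners 0 were called by limma (23 higher and 33 lower at an unadjusted p under 0.05). The closest was DICER1-AS1, head to head with the gene of the small RNA nuclease, with 20.7 and 20.7 TPM in KO, 15.2 and 15.0 in the SETD2 FL libraries and 27.8 and 31.8 in those of SETD2 C (log2 difference of -0.46 ± 0.08 from KO, adjusted p = 0.0855). HOXA-AS2 came next at -0.59 ± 0.10 (adjusted p = 0.0956). The SETD2 FL libraries held 439 and 422 TPM of SETD2 against 1329 and 1264 for SETD2 C, so construct and amount cannot be told apart in their comparison.

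The first table asked how the antisense genes differ between WT cells and KO cells without any construct. Of 319 tested there, 3 were called higher in WT and 0 lower by limma (57 and 23 at an unadjusted p under 0.05), where 1.02% of 14741 genes were called higher and 0.339% lower. The median difference was 0.08, and 0.11 for other lncRNAs. ZNF582-AS1, head to head with the zinc finger gene ZNF582, had 1.56 and 1.68 TPM in WT and 0.4 and 0.27 in KO (log2 difference 1.42 ± 0.18, adjusted p = 0.0111). In the second table it had 0.62 and 0.28 TPM in KO, 0.58 and 0.79 in SETD2 FL and 1.4 and 1.65 in SETD2 C, and it was the single gene called in WT and with SETD2 C against KO, although there its difference was 0.76 without the fourth KO library and 0.93 without the second SETD2 C library. DGUOK-AS1 had 4.05 and 4.92 TPM in WT and 1.42 and 2.31 in KO, a difference of 1.20 ± 0.19 (adjusted p = 0.026). TDRKH-AS1 had 4.21 and 4.1 in WT and 2.08 and 1.52 in KO, a difference of 1.14 ± 0.16 (adjusted p = 0.0184). Each of the 3 lost its call when 1 or more of the 4 libraries was left out, with differences from 0.92 to 1.31 then. With SETD2 FL against KO their differences were 0.33, 0.37 and -0.04, none of them called. Of the partners 0 were called higher and 1 lower, TRHDE, with 0.52 and 1.13 TPM in WT and 4.61 and 5.75 in KO, by limma (adjusted p = 0.00596), and TRHDE-AS1 was not called (adjusted p = 0.134).

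The genes called with SETD2 C were then read in these separate libraries. Of the 29 called against KO, 25 were tested in the first table, and 19 of them were higher in WT than in KO by sign (76%), with a median of 0.32. Of the 25 called against SETD2 FL, 21 were tested, and 14 were positive (66.7%), with a median of 0.08. Of the antisense genes called in neither, 178 of 286 were positive (62.2%), with a median of 0.07, and of all genes tested 51.1%. These shares were not tested. HIF1A-AS2 was below the filter in the first table, at 0 and 0.07 TPM in WT and 0.13 and 0.15 in KO. SLC2A1-AS1 had 0.82 and 1.13 TPM in WT and 0.99 and 0.95 in KO, which overlapped.

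**Figure D5:**
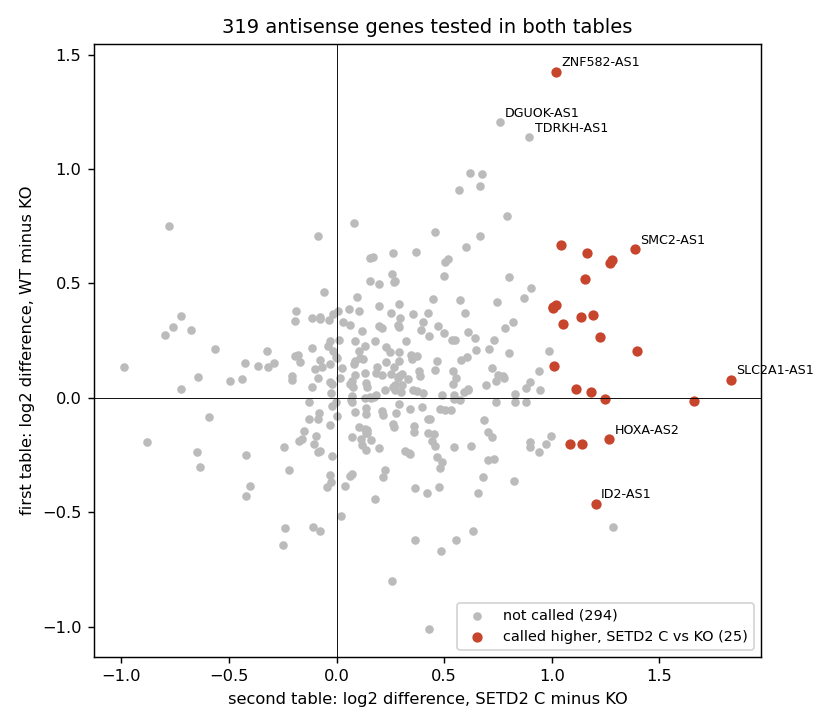
Log2 difference of WT minus KO in the first table (vertical axis) against that of SETD2 C minus KO in the second (horizontal axis) for the 319 antisense genes tested in both, with 1 point per gene and the 25 genes called higher with SETD2 C against KO in red. The tables share no library, 19 of the 25 red points lie above 0 on the vertical axis, and ZNF582-AS1 alone among them is called in WT.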

How the data were processed

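RNA-seq of HEK293T cells was deposited by the authors as 2 tables of TPM for 58884 genes. Per the authors, reads were aligned with STAR 2.6.1c to hg38 with the Ensembl annotation, and TPM was estimated with RSEM 1.3.0. The first table held 2 WT and 2 KO libraries, the second 2 KO, 2 SETD2 FL and 2 SETD2 C libraries. TPM keeps no read depth, so depth is unknown and no counting interval is given. The ChIP-seq samples were not analysed here.

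Within each table TPM was scaled by median ratios over genes at a TPM of 1 or more in all libraries and taken as log2(scaled TPM + 0.5), which understates the change of low genes. Protein-coding and lncRNA genes (GENCODE 44, matched for 58472 genes by identifier and 21 by symbol) that reached a TPM of 0.5 in 2 or more libraries were fitted together with limma 3.58.1 in R 4.3.3 (all groups of a table, empirical Bayes with trend). A call needed a change of 2-fold or more and an adjusted p (Benjamini-Hochberg) not above 0.05 over all genes tested. An exact permutation test of 2 against 2 libraries cannot give a two-sided p below 0.333 and was not used. The scripts were tested on simulated data.

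The antisense genes, lists and tests were chosen with earlier results of these data known. Genes named were the 12 called with the largest differences in each comparison with SETD2 C and no overlap of libraries, those called in WT, the 5 of highest level, pairs called together, 6 pairs with the largest gaps in each direction, often-studied antisense genes, and their partners. Other pseudocounts, filters, scalings, gene types and left-out libraries were tried as alternatives. Some items withheld for evaluation are not reported here.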

Additional observations from a re-analysis of the deposited data

How the results depend on the processing

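With 2 libraries a group and values without counts, the spread of low genes is poorly known, and the counts depend on scale. Single genes were followed only if called above, at a change of 2-fold or more, so a change of sign was hardly possible. None changed sign, but some missed a threshold. Of the 29 called against KO, 11 were still called with a pseudocount of 1 and 13 after quantile normalization. Genes dropped by a stricter filter were not followed there. Without scaling, the median of all genes moved from 0.05 to 0.18 for SETD2 C against KO. For that comparison the antisense genes called higher were 29, and 48 with a pseudocount of 0.1, 11 with a pseudocount of 1, 14 of the 222 left where all libraries had to reach a TPM of 1, 44 without scaling, 13 after quantile normalization and 126 at the adjusted p alone. Those called lower were 0, and 3, 6 and 17 with a pseudocount of 0.1, quantile normalization and the adjusted p alone, and 0 to 3 when single libraries were left out. Partners called were 8, 14 with a pseudocount of 0.1 and 67 at the adjusted p alone. The median of 0.29 was 0.37, 0.24, 0.27, 0.41 and 0.069 in the first 5 of these settings, 0.38 without mitochondrially encoded genes and SETD2, and 0.28 to 0.32 when single libraries were left out. All 29 genes were still called with a pseudocount of 0.1 and without scaling. Over all 15929 genes tested, 597 were called higher and 50 lower. These counts were 987 and 93 with a pseudocount of 0.1, 335 and 38 with a pseudocount of 1, and 800 and 37 without scaling. After quantile normalization they were 342 and 130, and at the adjusted p alone 3358 and 2404. With the stricter filter they were 267 and 34 of 12925 genes.

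Against SETD2 FL, 25 genes became 50 with a pseudocount of 0.1, 38 without scaling, 16 after quantile normalization, 139 at the adjusted p alone and 25 to 38 when single libraries were left out. Lower calls were 1 with a pseudocount of 0.1, 9 at the adjusted p alone and 0 to 1 without single libraries, and partners at the adjusted p alone were 73. The median of 0.32 was 0.39 and 0.26 with pseudocounts of 0.1 and 1, 0.34 with the stricter filter, 0.43 without scaling, 0.13 after quantile normalization, 0.35 without mitochondrially encoded genes and SETD2, and 0.29 to 0.32 without single libraries. For SETD2 FL against KO, 0 were called by limma in every setting, and the median of -0.06 was -0.075 after quantile normalization, -0.0078 without mitochondrially encoded genes and SETD2, and -0.061 to -0.034 without single libraries. The cause of these changes was not tested.

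For WT against KO, 3 calls became 5 with a pseudocount of 0.1, 0 without the filter, 8 at the adjusted p alone and 1 to 5 without single libraries, and the median of 0.08 was 0.011 after quantile normalization, 0.042 without the first WT library, 0.156 without the second WT library and -0.021 without scaling, where the median of all genes was -0.11. The replicate numbers of WT and KO were shared in that comparison, and with the replicate block 4 genes were called. Over all 14741 genes tested, 150 were called higher in WT and 50 lower. These counts were 178 and 61 with a pseudocount of 0.1, 467 and 194 at the adjusted p alone, and 159 and 55 with the block. Without the filter they were 58 and 15 of 23678 genes. Deviations of same-numbered libraries had a correlation of 0.147 across genes, which does not show whether the numbers pair the libraries. No paired analysis was possible for the second table because its groups share fewer than 2 numbers.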
